A study of Mus musculus with 6 samples.

Results

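FAT cadherins and the genes of planar cell polarity were followed in clonal mouse induced pluripotent stem cells (iPSCs) with and without Tet1, an enzyme that oxidises 5-methylcytosine. The 10 genes are Fat1, Fat3, Fat4, Dchs1, Fjx1, Vangl1, Vangl2, Celsr1, Celsr2 and Celsr3, taken by symbol from the 48440 genes of the deposited count table. They were chosen by the Fat4 counts, as Fat4 was among the largest rises in the knockout, so every difference between the groups that is given for them is a description and carries no test. The series asked how loss of Tet1 changes gene expression in iPSCs. The 3 knockout libraries are clones 14, 30 and 33 (replicates 1 to 3), with the label Tet1 Cas9 mut/mut, and the 3 non-targeted libraries are clones 49, 51 and 52 (replicates 1 to 3). All 6 are male clones of the same parental line, with the strain labels B6- Tet1tm1Kohx and B6;CBA-Tg(Pou5f1-EGFP)2Mnn/J and the genotype label wt/wt;GFP/wt. All groups therefore carry the Pou5f1-EGFP transgene. The labels describe 14 passages, a transfection with Cas9 protein, a Tet1 guide and a donor oligonucleotide, an enhancer of homology-directed repair for 12 h, and 4 passages after colonies were picked. They give this text for both groups, and do not say whether the non-targeted clones met the guide. Each group is a set of single clones grown on embryonic fibroblast feeders, so p-values measure the spread between these clones.

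FAT1, FAT3 and FAT4 are giant atypical cadherins, with long extracellular chains of cadherin repeats. DCHS1 is the cadherin that binds FAT4 on the neighbouring cell, and FJX1 is the relative of the fly Golgi kinase four-jointed, which tunes that binding in flies. The CELSR cadherins and the VANGL membrane proteins belong to the core module of planar cell polarity, which orients cells within a sheet and drives convergent extension and neural tube closure in the embryo. FAT and Dachsous cadherins also feed into Hippo signalling in flies, which restrains the coactivators YAP and TAZ.

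Total counts were 11937909 to 16189554 per library. Tet1 had 365, 231 and 288 CPM (counts scaled to equal library size) in knockout replicates 1 to 3, against 1158, 966 and 1034 CPM in the non-targeted replicates. All knockout clones thus lay below all non-targeted clones, with reads still present in each (log2 fold change -1.84 ± 0.16 SE; edgeR adjusted p = 0.0703; limma voom adjusted p = 0.0431; DESeq2 adjusted p = 9.06e-20). Over all 14664 tested genes edgeR's quasi-likelihood test, the main test, called 0 genes (0.00%), with 3640 genes (24.8%) at an unadjusted p under 0.05. Of the 13677 genes to which DESeq2 gave an adjusted p, it called 789 that rose (5.77%) and 458 that fell (3.35%), and limma voom called 1 gene, Tet1. Values in every knockout clone exceeded those in every non-targeted clone for 14.8% of the tested genes, and lay below them for 14.7%.

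The 10 genes covered a range of levels from Fat1, among the abundant transcripts, down to Fat4, near the limit of detection. Levels between genes were compared as CPM per kilobase of gene body, since the deposited counts were taken over whole gene bodies with introns. On that scale the order in the non-targeted clones was Fat1 (8.05 ± 0.528; SD, n = 3), Fjx1 (2.85 ± 0.594), Vangl2 (1.93 ± 0.0823), Vangl1 (1.13 ± 0.103), Celsr3 (0.533 ± 0.0808), Celsr2 (0.489 ± 0.1298), Celsr1 (0.216 ± 0.00199), Dchs1 (0.0530 ± 0.0211), Fat3 (0.00417 ± 0.00343) and Fat4 (0.00255 ± 0.000828). The ranges of neighbours overlapped for Celsr3 and Celsr2 and for Fat3 and Fat4 and were separate elsewhere. In the knockout clones the ranges of neighbours overlapped for Celsr2 and Vangl1, for Celsr1 and Dchs1 and for Fat4 and Fat3. Celsr2 stood 4th there, above Vangl1, at 1.40 ± 0.471 (SD, n = 3). Per kilobase of exon in GENCODE M21, a length chosen after seeing the data, Fat1 remained first and Fat4 last in the non-targeted clones, while Vangl1 and Vangl2 moved to the next places, at 8.09 ± 0.735 and 7.59 ± 0.324.

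**Figure D1:**
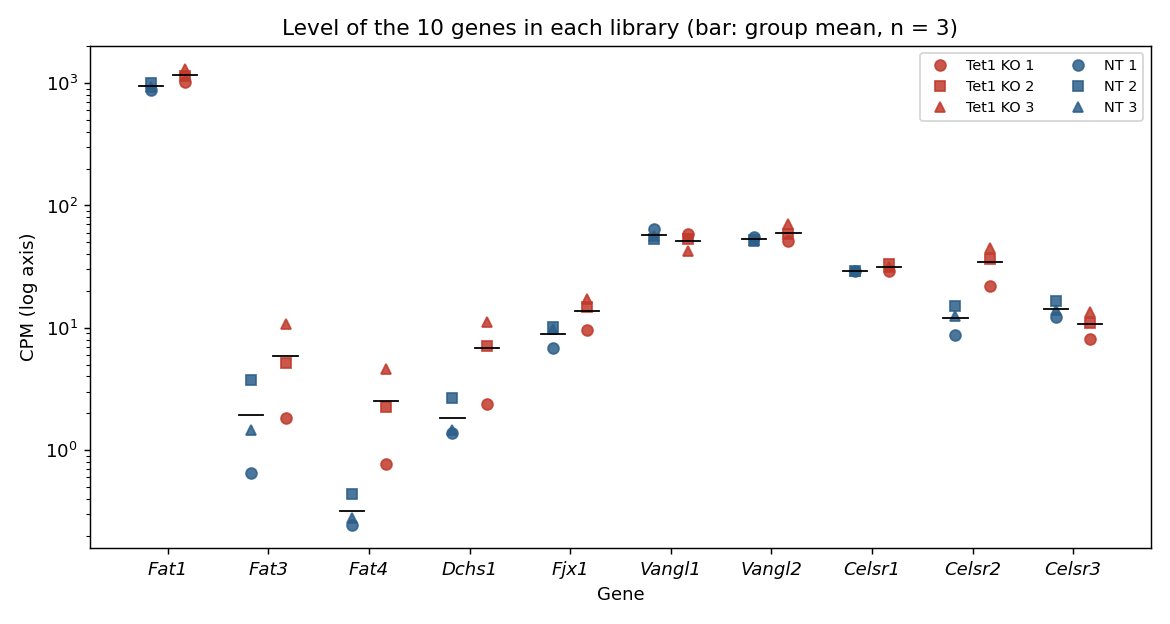
CPM of each of the 10 genes on a log axis, with 1 point per library (red, Tet1 knockout; blue, non-targeted; the symbol marks the replicate) and a bar at each group mean (n = 3). Fat1 stands at 882 to 1312 CPM in the 6 libraries, while Fat4 stays between 0.242 and 4.602 CPM, and the knockout clones spread widely for Fat3, Fat4 and Dchs1.

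Promoter sequence is shown for Fat4 and Celsr2, the genes whose groups were farthest apart without any overlap, and for Celsr3, the CELSR gene with a lower mean in the knockout. They are 250 bases before the RefSeq start site (GRCm38.p6), 5′ to 3′ on the strand of the gene, with CpG, the dinucleotide at which mammalian DNA is mainly methylated, in capitals. The Fat4 window is chr3:38886690-38886939 (plus strand), that of Celsr2 is chr3:108415580-108415829 (minus strand) and that of Celsr3 is chr9:108825795-108826044 (plus strand).
Fat4: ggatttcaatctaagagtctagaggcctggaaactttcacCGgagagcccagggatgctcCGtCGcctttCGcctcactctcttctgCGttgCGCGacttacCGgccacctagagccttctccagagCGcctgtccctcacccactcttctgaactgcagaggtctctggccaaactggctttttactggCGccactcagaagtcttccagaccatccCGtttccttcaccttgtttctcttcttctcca
Celsr2: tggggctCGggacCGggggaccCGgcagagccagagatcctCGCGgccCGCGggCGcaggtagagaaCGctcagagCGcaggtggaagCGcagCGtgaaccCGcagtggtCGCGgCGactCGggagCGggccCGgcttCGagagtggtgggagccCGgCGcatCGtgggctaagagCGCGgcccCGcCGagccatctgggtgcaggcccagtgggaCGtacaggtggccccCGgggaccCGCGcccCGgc
Celsr3: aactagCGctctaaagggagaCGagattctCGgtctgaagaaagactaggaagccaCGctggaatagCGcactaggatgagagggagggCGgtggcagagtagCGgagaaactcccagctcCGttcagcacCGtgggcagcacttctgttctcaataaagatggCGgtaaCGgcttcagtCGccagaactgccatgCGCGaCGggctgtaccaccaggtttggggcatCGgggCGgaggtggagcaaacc
The Fat4 window held 11 CpG, and 35.6% of all 32851 RefSeq promoter windows of that length held at least as many. Celsr2 had 32 CpG, a number reached by 4.58% of the windows, and Celsr3 had 17, reached by 23.5%. The search was for CG, which reads the same on both strands and occurs in 92.1% of the windows, with a median of 6. DNA methylation was not analysed here, so the counts describe sequence only. Of the 10 genes 6 had an entry in the table. The RefSeq start sites of Vangl2, Fat1 and Fat3 lie 1149, 14761 and 123823 bases from the start of the deposited gene model, and their windows are not shown. That of Fat3 lies outside the model, so any transcript upstream of it was not counted as Fat3.

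Fat4 and its ligand Dchs1 were both higher on average in the knockout, from very low levels. Fat4 (chr3:38886940-39011985) had 10, 27 and 64 counts in knockout replicates 1 to 3 and 3, 7 and 4 counts in the non-targeted replicates. These correspond to 0.767, 2.23 and 4.602 CPM against 0.242, 0.437 and 0.278 CPM. Every knockout clone lay above every non-targeted clone, yet the highest knockout clone had about 6 times the level of the lowest. The log2 fold change was 2.94 ± 0.70 (SE), and 2.17 without knockout replicate 3. Fat4 passed the filter on low counts through its 3 knockout libraries alone, as 0 non-targeted libraries reached the cutoff of 0.748 CPM, so its place among the tested genes already required a difference.

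Dchs1 (chr7:105752990-105787654) had 2.38, 7.03 and 11.1 CPM in knockout replicates 1 to 3, against 1.37, 2.68 and 1.46 CPM in the non-targeted replicates. Knockout replicate 1 lay below non-targeted replicate 2, so the groups overlapped, and the 2 other knockout clones were well above all controls. The log2 fold change was 1.88 ± 0.56 (SE) and 1.33 without knockout replicate 3. Within each library Dchs1 exceeded Fat4 per kilobase of exon, by 4.82, 4.89 and 3.74 times in the knockout replicates and by 8.80, 9.54 and 8.16 times in the non-targeted replicates (per kilobase of gene body by 8.68 to 11.4 and by 18.9 to 22.2 times). Both genes ranked the knockout clones in the same order, and the ratio of Dchs1 to Fat4 was smaller in all 3 knockout clones. Fat4 was picked for its rise in this contrast, which by itself lowers that ratio in the knockout. The control ratios also rest on Fat4 counts of 3, 7 and 4, so nothing is read from the difference.

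Fjx1 (chr2:102449366-102452499) encodes the kinase relative and is a short gene of 3134 bases. It had 9.51, 14.8 and 17.2 CPM in the knockout replicates and 6.78, 10.2 and 9.80 CPM in the non-targeted replicates. Knockout replicate 1 overlapped the controls, and replicates 2 and 3 lay above them (log2 fold change 0.63 ± 0.26 SE).

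The other FAT cadherins differed from each other by orders of magnitude in level. Fat1 (chr8:44935447-45052257), which also organises actin at cell contacts, had 1032, 1153 and 1312 CPM in the knockout replicates and 882, 1005 and 933 CPM in the non-targeted replicates. The groups did not overlap, but the difference was small (log2 fold change 0.31 ± 0.10 SE) and the closest clones, at 1032 and 1005 CPM, nearly met. Fat1 made up 99.1% to 99.8% of the summed Fat1, Fat3 and Fat4 level per kilobase of exon in the knockout clones and 99.7% to 99.9% in the non-targeted clones.

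Fat3 (chr9:15910205-16378231), known for its role in the shape of retinal neurons, was sparse. It had 1.84, 5.13 and 10.6 CPM in the knockout replicates and 0.646, 3.74 and 1.46 CPM in the non-targeted replicates. The groups overlapped, as knockout replicate 1 lay below non-targeted replicate 2, and the log2 fold change of 1.56 ± 0.74 (SE) moved to 0.80 without knockout replicate 3 and to 2.45 without non-targeted replicate 2. For Fat1, Fat3, Fat4, Dchs1, Fjx1 and Celsr2 alike the highest library was knockout replicate 3 and the lowest non-targeted replicate 1.

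**Figure D2:**
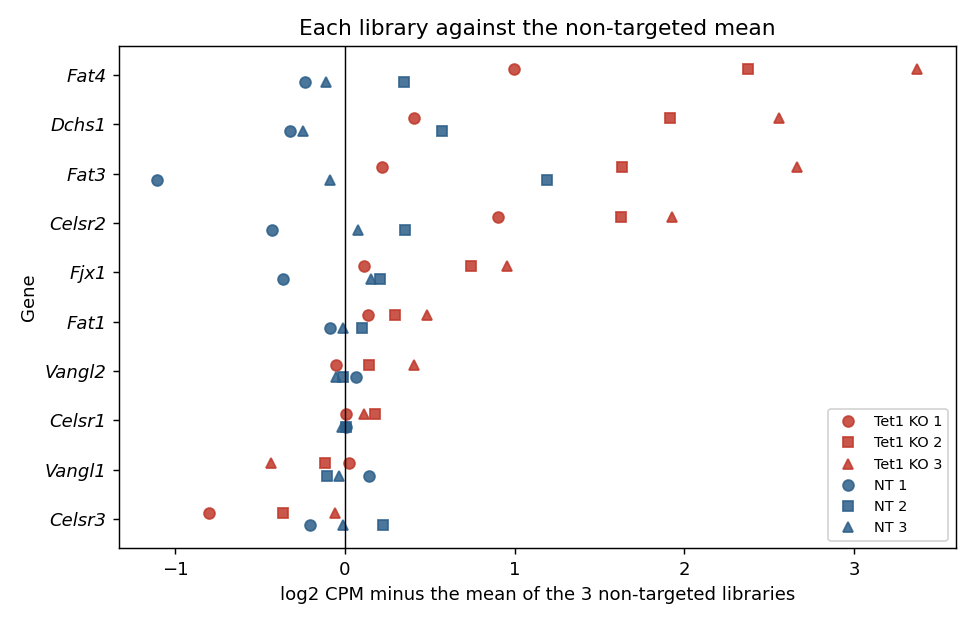
Log2 CPM of each library minus the mean of the 3 non-targeted libraries, for the 10 genes ordered by their fold change (red, Tet1 knockout; blue, non-targeted; the symbol marks the replicate). Knockout replicate 1 sits nearest to the non-targeted clones for the 6 genes at the top, and Fat4 spans 0.99 to 3.37 among the knockout clones.

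Among the CELSR cadherins, which bridge neighbouring cells and carry Frizzled and VANGL complexes on opposite sides of a junction, the members went separate ways. Celsr2 (chr3:108390851-108415552) had 22.2, 36.7 and 45.2 CPM in the knockout replicates and 8.72, 15.1 and 12.4 CPM in the non-targeted replicates. All knockout clones lay above all non-targeted clones, with a log2 fold change of 1.52 ± 0.30 (SE), and 1.28 without knockout replicate 3. Celsr3 (chr9:108826320-108852969), known for axon guidance in the brain, had 8.05, 10.9 and 13.5 CPM against 12.2, 16.5 and 14.0 CPM. The groups overlapped, since knockout replicate 3 lay above non-targeted replicate 1 (log2 fold change -0.39 ± 0.22 SE). A small gene, Gm23156, lies within Celsr3 on the same strand, and reads over it were counted for neither. Celsr1 (chr15:85898758-86033777), the gene of the mouse mutant Crash, had 29.4, 33.1 and 31.6 CPM against 29.4, 29.4 and 28.9 CPM. Its non-targeted values were nearly identical, and knockout replicate 1 lay within them (0.10 ± 0.10 SE).

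The makeup of the CELSR family per kilobase of exon differed accordingly. Celsr2 held 43.7% ± 6.58 (SD, n = 3) of the family total in the knockout clones and 21.3% ± 3.82 in the non-targeted clones. Celsr3 held 13.2% ± 0.838 and 24.0% ± 1.40, and Celsr1 43.1% ± 7.27 and 54.7% ± 5.15. The shares depend on the length used. Per kilobase of gene body Celsr2 held 68.0% ± 4.11 (SD, n = 3) and 39.0% ± 4.17, Celsr3 20.1% ± 1.13 and 43.1% ± 1.21, and Celsr1, a long gene, only 12.0% ± 3.16 and 17.8% ± 3.10. On both scales the Celsr2 share was higher and the Celsr3 share lower in the knockout. Shares of a total are tied, so a higher Celsr2 by itself lowers the shares of Celsr3 and Celsr1. In CPM Celsr3 overlapped between the groups and Celsr1 differed little. The ratio of Celsr2 to Celsr3 within a library, which cancels library scaling, was 2.88, 3.52 and 3.50 in the knockout replicates and 0.749, 0.961 and 0.933 in the non-targeted replicates. Celsr2 thus exceeded Celsr3 in each knockout clone, knockout replicate 1 included, and did not in any non-targeted clone. Per kilobase of gene body the ratios were 2.97, 3.63 and 3.60 against 0.771, 0.989 and 0.961. In non-targeted replicates 2 and 3 the pair was close, with 242 and 179 counts for Celsr2 and 264 and 201 for Celsr3. Their order in those clones is not resolved.

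**Figure D3:**
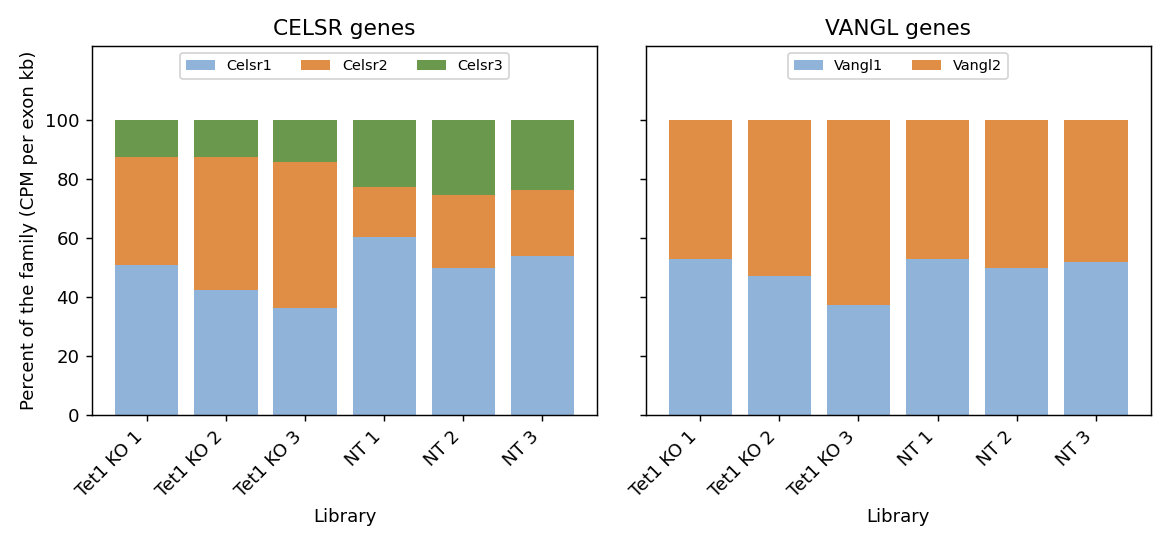
Stacked bars give, for each of the 6 libraries, the percent of the CELSR family (left) and of the VANGL pair (right) that each gene holds, as CPM per kilobase of exon. The Celsr2 share is 36.6% to 49.6% in the knockout clones and 17.1% to 24.5% in the non-targeted clones, while the VANGL shares of knockout replicate 1 lie within the control range.

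VANGL1 and VANGL2 are transmembrane proteins that recruit Prickle, and Vangl2 is the gene of the mouse mutant Loop-tail. Vangl2 (chr1:172000960-172028444) had 51.2, 58.6 and 70.4 CPM in the knockout replicates and 55.5, 52.5 and 51.1 CPM in the non-targeted replicates. Vangl1 (chr3:102153583-102204693) had 58.7, 53.3 and 42.6 CPM against 63.8, 53.6 and 56.3 CPM. The groups overlapped for both genes, with log2 fold changes of 0.18 ± 0.13 and -0.17 ± 0.14 (SE). The ratio of Vangl2 to Vangl1 per kilobase of exon was 0.893, 1.13 and 1.69 in the knockout replicates and 0.892, 1.003 and 0.929 in the non-targeted replicates, so replicates 2 and 3 lay above the control range and replicate 1 inside it. Per kilobase of gene body it was 1.62, 2.05 and 3.08 against 1.62, 1.82 and 1.69, so Vangl2 then exceeded Vangl1 in all 6 libraries.

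Counted over the family, 8 of the 10 genes had a positive log2 fold change (50.3% of all tested genes did), with a median of 0.47 beside 0.0021 over all tested genes. In 3 of 10, Fat1, Fat4 and Celsr2, the knockout values were all above the non-targeted ones (14.8% of all tested genes), and in 0 all below (14.7%). The edgeR test called 0 of 10 (0.00% of all tested genes; 5 of 10 had an unadjusted p under 0.05, against 24.8%), and DESeq2 called 3, Fat4, Dchs1 and Celsr2 (5.77% of the genes with a DESeq2 adjusted p rose). A log2 fold change of at least 1 was seen for 4 of 10, Fat3, Fat4, Dchs1 and Celsr2 (6.22% of all tested genes). As Fat4 was picked in this contrast, nothing is read from these counts. The number called depended on the libraries. Without knockout replicate 1 edgeR called 6 (Fat1, Fat3, Fat4, Dchs1, Fjx1 and Celsr2), and DESeq2 called the same 6. Over all genes that setting gave 2287 that rose and 2117 that fell of 15140 in edgeR. In DESeq2 it gave 2051 that rose and 2071 that fell of 14485. Without knockout replicate 2, knockout replicate 3, non-targeted replicate 1 or non-targeted replicate 3 DESeq2 called 1, Celsr2, in each case. Without non-targeted replicate 2 it called 4, with Fat3 added. Over all genes DESeq2 called 194 of 14446 that rose without knockout replicate 2, and 147 of 13876 without knockout replicate 3. Its counts over all genes without a non-targeted library are not given here, so nothing is read from the member counts of those sets.

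The other genes of these pathways were taken from 6 lists that together hold 76 genes, of which 74 were tested. The lists were chosen with earlier results of these data known, so their shares are a description and do not test the pathways. Across the 74 genes 56 had a positive log2 fold change (75.7%, where 50.3% of all tested genes did), with a median of 0.23 beside 0.0021. In 29 the knockout clones all lay above the non-targeted clones (39.2%, where 14.8% of all tested genes did). In 4 they all lay below (5.41%, where 14.7% did). The edgeR test called 0 of 74, with 35 at an unadjusted p under 0.05 (24.8% of all tested genes were). DESeq2 called 16 that rose and 0 that fell among the 71 with an adjusted p (22.5%, beside 5.77% of all genes with an adjusted p). That count was 31 without knockout replicate 1, with 6 that fell, and 2, 2, 1, 11 and 1 without knockout replicate 2, knockout replicate 3 and non-targeted replicates 1, 2 and 3. In edgeR 30 rose and 5 fell without knockout replicate 1, and 0 passed without any other library. Over all genes the set without knockout replicate 1 gave 2287 that rose and 2117 that fell of 15140 in edgeR. In DESeq2 that set gave 2051 and 2071 of 14485. DESeq2 called 194 of 14446 genes that rose without knockout replicate 2, and 147 of 13876 without knockout replicate 3. Its counts over all genes without a non-targeted library are not given here, so nothing is read from the pathway counts of those sets.

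The core planar polarity list holds Frizzled receptors, Dishevelled adaptors and Prickle proteins. In it 12 of 15 genes were above 0 (median log2 fold change 0.20), edgeR called 0 and DESeq2 called 1. For this and the other pathway lists the shares over all genes were 50.3% positive and 5.77% that rose in DESeq2. A count of 1 in 15 is near the latter share. The gene called was Dvl1, a Dishevelled adaptor that relays Frizzled signals, which rose in DESeq2 (adjusted p = 0.00900). It had 25.9, 35.3 and 44.4 CPM in the knockout replicates and 15.6, 22.2 and 19.5 CPM in the non-targeted replicates, without overlap (log2 fold change 0.88 ± 0.22 SE; edgeR adjusted p = 0.114).

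Noncanonical Wnt ligands and receptors had a median of 0.96, with 8 of 10 above 0, and a median of 0.47 without knockout replicate 3. EdgeR called 0 of them and DESeq2 called 3 that rose, all of them receptors. Ryk, an atypical kinase that binds Wnt ligands, had 69.8, 99.9 and 101.3 CPM against 54.2, 65.3 and 58.9 CPM (0.60 ± 0.16 SE; DESeq2 adjusted p = 0.0206; edgeR adjusted p = 0.117). Ror2, the main receptor of Wnt5a in planar polarity, had 39.1, 70.7 and 62.6 CPM against 30.5, 36.5 and 35.0 CPM (0.76 ± 0.21 SE; DESeq2 adjusted p = 0.0210; edgeR adjusted p = 0.123). For both genes the groups were separate. Ror1, its paralogue, had 3.37, 14.8 and 15.8 CPM against 1.45, 5.12 and 3.48 CPM, so that knockout replicate 1 lay among the controls (1.74 ± 0.63 SE; DESeq2 adjusted p = 0.0344; edgeR adjusted p = 0.159).

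Effectors of planar polarity were centred near 0 (median 0.01, 7 of 13 above 0). EdgeR called 0 and DESeq2 called 1 of the 12 with an adjusted p, near the share over all genes. The gene called was the transcription factor Jun, which lies downstream of the Jun kinase branch. It had 48.2, 91.7 and 111.2 CPM against 30.02, 54.4 and 38.7 CPM, with knockout replicate 1 below non-targeted replicate 2 (1.03 ± 0.33 SE; DESeq2 adjusted p = 0.0220; edgeR adjusted p = 0.137).

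In the Hippo list 14 of 18 kinases and regulators were above 0 (median 0.20; 0.06 without knockout replicate 1). EdgeR called 0 and DESeq2 called 5 that rose and 0 that fell. Wwc2, a relative of the Hippo activator KIBRA, had 117.5, 151.2 and 162.4 CPM against 100.1, 101.7 and 103.7 CPM (0.50 ± 0.12 SE; DESeq2 adjusted p = 0.0226; edgeR adjusted p = 0.112). The phosphatase Ptpn14, which restrains YAP, had 120.9, 213.7 and 255.8 CPM against 84.0, 118.7 and 101.1 CPM (0.96 ± 0.26 SE; DESeq2 adjusted p = 0.0101; edgeR adjusted p = 0.122). Amotl1, a junction protein that binds YAP, had 61.9, 69.3 and 106.1 CPM against 45.6, 52.3 and 46.1 CPM (0.72 ± 0.20 SE; DESeq2 adjusted p = 0.0213; edgeR adjusted p = 0.123). All 3 were separate between the groups, although Ptpn14 in knockout replicate 1 stood only just above non-targeted replicate 2.

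In the list of YAP, TAZ and TEAD factors and their targets 10 of 12 tested genes were above 0 (median 0.53). Without knockout replicate 1 the median was 0.83 over 13 genes, and over 13 genes with all libraries and no filter it was 0.65. EdgeR called 0 and DESeq2 called 6 that rose and 0 that fell. The secreted matrix protein gene Cyr61, a classical YAP target, had 193.5, 293.8 and 345.5 CPM against 145.0, 149.9 and 146.2 CPM (0.92 ± 0.19 SE; DESeq2 adjusted p = 0.00122; edgeR adjusted p = 0.106). It was the only pathway gene that DESeq2 called in the full set and in each set without 1 library. Tead1, a DNA-binding partner of YAP, had 322.7, 390.2 and 344.0 CPM against 279.3, 266.1 and 250.7 CPM (0.41 ± 0.09 SE; DESeq2 adjusted p = 0.0158; edgeR adjusted p = 0.109). Crim1, a membrane protein that binds bone morphogenetic proteins, had 8.59, 10.6 and 18.6 CPM against 4.44, 5.24 and 4.87 CPM (1.38 ± 0.30 SE; DESeq2 adjusted p = 0.00244; edgeR adjusted p = 0.109). The groups were separate for each of these 3 genes.

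**Figure D4:**
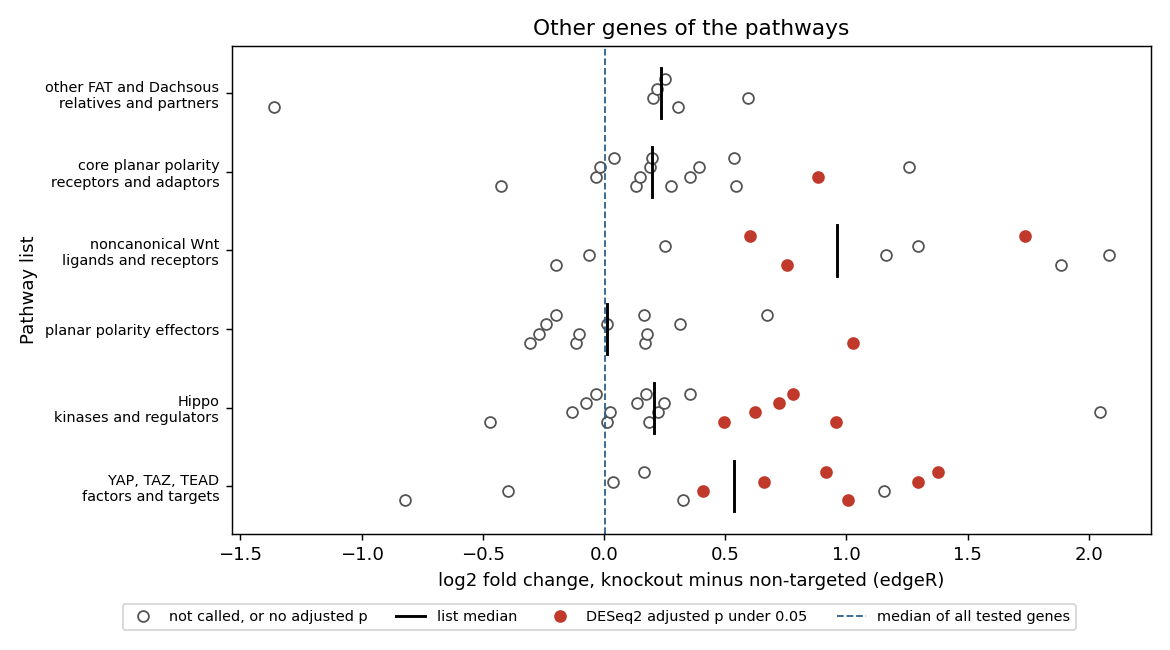
Log2 fold changes (knockout minus non-targeted, edgeR) of the 74 tested genes of the 6 pathway lists, with a black bar at each list median and a dashed line at the median of all tested genes (0.0021). Red points mark the 16 genes with a DESeq2 adjusted p under 0.05, all of them to the right of 0.

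Of the relatives and partners of FAT and Dachsous cadherins, 5 of 6 tested genes were above 0 (median 0.23), with 0 called by edgeR or DESeq2. In 3 of the 6, Rere, Mpdz and Mpp5, all knockout clones lay above all controls (14.8% of all tested genes). An unadjusted edgeR p under 0.05 was seen for 4 of the 6 (24.8% of all tested genes). The smallest p-values belonged to the junction scaffolds Mpdz (0.59 ± 0.19 SE; edgeR adjusted p = 0.138; DESeq2 adjusted p = 0.0580) and Mpp5 (0.31 ± 0.11 SE; edgeR adjusted p = 0.148; DESeq2 adjusted p = 0.144). Fat2, the FAT cadherin outside the 10 genes, is given for its kinship. It had 0.537, 0.331 and 0.791 CPM in the knockout replicates and 0.565, 2.06 and 1.67 CPM in the non-targeted replicates, overlapping between the groups (-1.36 ± 0.55 SE; edgeR adjusted p = 0.183). Dchs2, the paralogue of Dchs1, stayed at 0.139 to 0.767 CPM in all 6 libraries and was not tested.

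Markers of other cell types differed alongside the FAT and CELSR values. These are bulk libraries, in which fewer cells of a type and less RNA per cell cannot be told apart. Of the 30 fibroblast markers 26 were tested, 24 of them with a positive log2 fold change (median 1.19), and DESeq2 called 13 that rose while edgeR called 0. For this and the other marker lists the shares over all genes were 50.3% positive and 5.77% that rose in DESeq2. Their summed level was 2013 to 2571 CPM in the knockout clones and 2034 to 2410 CPM in the controls, most of it from Fn1, Vim and Sparc. The sum of the 27 others was 487, 586 and 1208 CPM for knockout replicates 1 to 3, beside a control range of 279 to 403 CPM. Of the 30, Tcf21 was at 0 in 5 libraries and Fap in 2, and the fibrillar collagens Col1a1, Col1a2 and Col3a1 were present in all 6. Measured against the non-targeted libraries, the list median of log2 CPM stood at 0.62, 0.81 and 1.81 for knockout replicates 1 to 3. That is the order of Fat4, Dchs1, Fat3 and Celsr2. It was also the order of the medians of the primitive streak (-0.16, 2.06 and 2.84), primitive endoderm (0.24, 0.61 and 1.15) and neuroectoderm lists (0.37, 0.81 and 0.91). The log2 of the summed fibroblast level correlated with Fat4, Dchs1, Fat3 and Celsr2 at r = 0.06, -0.09, -0.18 and -0.02 over the 6 libraries. The part of feeder cells in the FAT and CELSR values was not tested. Without knockout replicate 3, where the fibroblast markers were highest, the log2 fold changes of Fat4, Dchs1, Fat3 and Celsr2 were 2.17, 1.33, 0.80 and 1.28.

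The 11 primitive streak markers, led by T, Eomes and Fgf8, had a summed level of 16.4, 109.8 and 68.6 CPM for knockout replicates 1 to 3, against 11.5, 22.7 and 10.2 CPM in the controls. Knockout replicate 2 was highest and replicate 1 lay within the control range. Of the 7 tested, 6 had a positive log2 fold change, and DESeq2 called 2 that rose while edgeR called 0. The 11 genes of the neuroectoderm list summed to 124.8, 295.8 and 379.8 CPM against 77.1, 140.1 and 79.2 CPM, nearly all of it from Nes and Msi1, and DESeq2 called 1 that rose and 1 that fell among 5 tested, edgeR 0. Without its 3 highest genes, Nes, Msi1 and Map2, the sum was 7.12 to 9.58 CPM in the knockout and 7.75 to 8.67 CPM in the controls. In that list Sox1 and Tubb3 were listed at 0 in all 6 libraries, each lying within another gene on the same strand. The 12 primitive endoderm markers, led by Sparc, Lamb1 and Col4a1, had a sum of 717 to 979.9 CPM in the knockout and 723 to 778 CPM in the controls, with 4 of 10 tested that rose in DESeq2 and 0 in edgeR. The lists share genes: Sparc and Pdgfra, the latter among these 4, are also in the fibroblast list, and Foxa2 is also in the primitive streak list. The part of these 3 lists in the FAT and CELSR values was not tested. The 12 markers of pluripotent cells, led by Pou5f1, Sall4 and Esrrb, were present in every library except Sox2, which lies within Sox2ot and was listed at 0. Their sum was 4897, 4111 and 3328 CPM for knockout replicates 1 to 3, beside a control range of 4964 to 5454 CPM, and neither edgeR nor DESeq2 called any of the 11 tested.

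**Figure D5:**
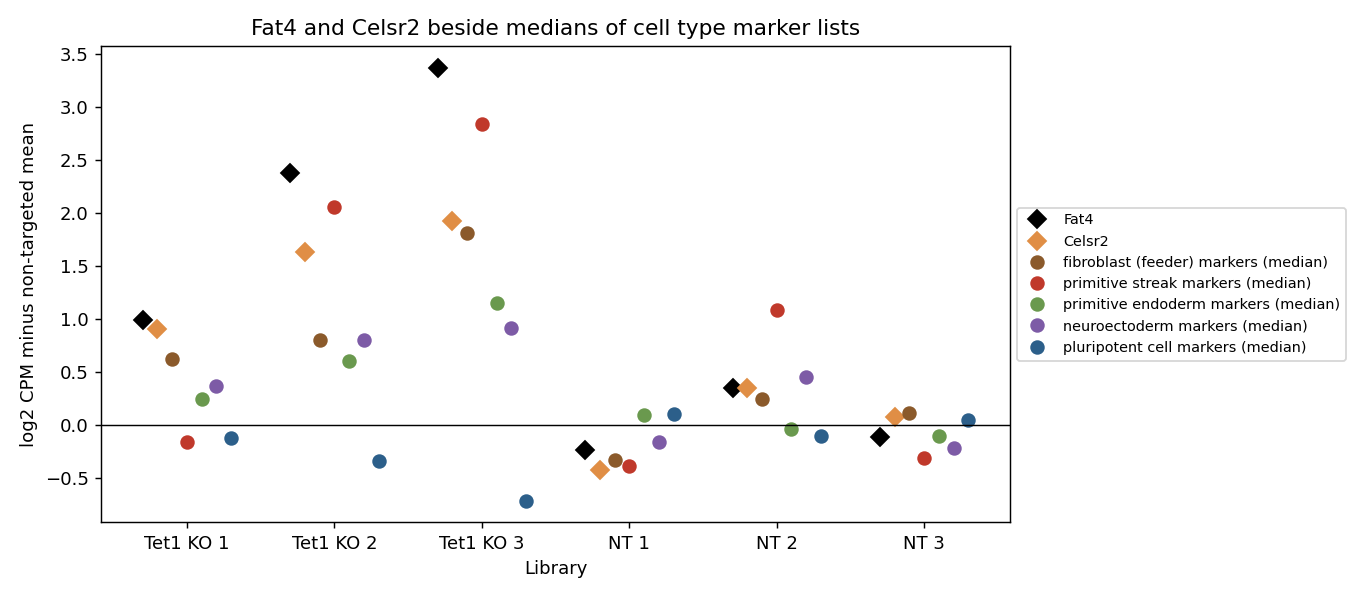
Log2 CPM of Fat4 and Celsr2 (diamonds) and the median of 5 cell type marker lists (circles), each minus the mean of the 3 non-targeted libraries, in each of the 6 libraries. Knockout replicate 1 has Fat4 at 0.99 and Celsr2 at 0.90 with the primitive streak median at -0.16, while knockout replicate 3 is highest for both genes and for each list except the pluripotent one, where it is lowest.

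Many other genes had levels that correlated closely with those of Fat4. Among 12354 tested genes with a mean of at least 1 CPM, 1443 had a Pearson correlation of at least 0.9 with Fat4 in log2 CPM over the 6 libraries, which share their grouping into 3 knockout and 3 control clones. The 5 closest were Gnas, the imprinted gene of the stimulatory G protein alpha subunit, Gclc, an enzyme of glutathione synthesis, Surf4, a cargo receptor of the endoplasmic reticulum, Lpcat4 and Atp13a2, each with r of at least 0.997. Gnas had 161.4, 257.6 and 332.7 CPM in the knockout replicates and 115.9, 133.6 and 114.2 CPM in the non-targeted replicates. Lpcat4, an acyltransferase of phospholipids, had 19.7, 34.4 and 50.04 CPM against 10.6, 15.4 and 11.9 CPM. In both genes, as in Fat4, knockout replicate 3 was highest and non-targeted replicate 2 was the highest control.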

How the data were processed

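Polyadenylated RNA of 6 clonal lines was sequenced with a stranded kit, per the labels' protocols. The authors deposited raw whole-number counts per gene. The submitters' processing notes list mm10, DESeq2 1.18.1, HISAT2 2.1.0 and, for counting, featureCounts 1.5.3. Per the file headers, featureCounts 1.6.2 counted reverse-stranded reads over whole gene bodies of GENCODE M15 (GRCm38.p5), and no option for multi-mapping or multi-overlapping reads was set, so genes within another gene on the same strand lose reads.

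Genes were filtered with edgeR's filterByExpr (minimum count 10, minimum total 15), which kept 14664 of 25600 genes with any count. CPM used TMM factors. The edgeR quasi-likelihood test, with no covariate, compared the groups, and p-values were adjusted by Benjamini-Hochberg over all tested genes (threshold 0.05). Log2 CPM used a prior count of 2. DESeq2, limma voom, RLE factors, no filter, a replicate block and leaving out each library were alternatives; leaving out libraries under DESeq2 was added after seeing the data. Fits were tested on simulated data. DESeq2 1.42.0, edgeR 4.0.16 and limma 3.58.1 ran under R 4.3.3.

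The 10 genes and all lists were chosen with earlier results of these data known. Named pathway genes were the up to 3 of a list with the smallest edgeR p among its DESeq2 calls, or without calls the 2 with the smallest edgeR p. From each marker list the 3 genes with the highest mean were named, and the 5 tested genes (mean of at least 1 CPM, no predicted gene models) best correlated with Fat4, and other names were chosen after their values were seen or for kinship. RefSeq gave the promoters (GRCm38.p6) and GENCODE M21 the exon lengths.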

Additional observations from a re-analysis of the deposited data

How the results depend on the processing

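The signs of all 10 log2 fold changes were kept under all alternatives run. Each moved by less than 1 SD of log2 CPM within the groups. Yet Fat4, Fat3 and Vangl2 moved by more than their SE when knockout replicate 3 was left out, as did Fat3 without non-targeted replicate 2. Fat1 also moved by more than its SE at 0.21, its lowest value over all alternatives. Counts of calls did not keep their size. Over all genes edgeR called 0; DESeq2 called 789 that rose and 458 that fell, limma voom 1 that fell, and edgeR without the filter on low counts 97 that rose and 62 that fell. Of the 76 pathway genes DESeq2 called 16 that rose and the unfiltered edgeR fit 1. Of the 10 genes DESeq2 called 3 and the unfiltered fit 1. Leaving out 1 library, in edgeR or DESeq2, gave 0 to 2287 genes that rose and 0 to 2117 that fell, 0 to 31 pathway genes that rose and 0 to 6 that fell, and 0 to 6 of the 10 genes that rose. RLE factors changed no count. With the replicate number as a block edgeR called 2 genes that rose and 1 that fell, and 0 pathway genes. The labels give no pairing of the clones by these numbers. Deviations of same-numbered libraries from their group means correlated at 0.46, 0.11 and -0.02, and knockout replicate 3 correlated best with non-targeted replicate 2 (0.46). Deviations from a mean of 3 libraries are tied to each other, so these values cannot decide whether the clones are paired. Of the 9 neighbouring pairs in the order of levels, 6 kept their order per kilobase of exon and 5 without division by length. The cause of these changes was not tested. The single-digit Fat4 counts in the controls limit the precision of its fold change.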
